A study of Mus musculus with 8 samples.

Results

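A set of 8 genomic windows around genes for collagens and other fibre proteins of the extracellular matrix was examined for chromatin accessibility in mouse primary lung fibroblasts with and without cGAS, the sensor of cytosolic DNA that starts the interferon response. The measured units were open chromatin regions (OCRs), the peaks of an ATAC-seq experiment, in which a transposase inserts sequencing adapters where nuclear DNA is accessible. An OCR was a member when its midpoint lay inside one of the 8 windows, and 555 of the 185268 OCRs in the table did so. In build GRCm39 the windows were chromosome 11 from 94.7 to 95 Mb for Col1a1 (67 OCRs), chromosome 6 from 4.35 to 4.7 Mb for Col1a2 (50 OCRs), chromosome 1 from 45.2 to 45.7 Mb for Col3a1 and Col5a2 (69 OCRs) and chromosome 2 from 27.6 to 28.1 Mb for Col5a1 (96 OCRs). The other 4 were chromosome 8 from 11.1 to 11.6 Mb for Col4a1 and Col4a2 (107 OCRs), chromosome 1 from 90.55 to 90.85 Mb for Col6a3 (50 OCRs), chromosome 1 from 71.5 to 71.8 Mb for Fn1 (39 OCRs) and chromosome 2 from 125.0 to 125.4 Mb for Fbn1 (77 OCRs). The windows were set by gene names and positions, and by no measured value, but they were chosen with earlier results of these data known. No gene annotation in GRCm39 was used here, so no OCR is assigned to a gene, an exon or a promoter, and the windows also hold neighbouring genes.

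The study compared cells of 4 cGAS knockout (KO) mice with cells of 4 wild-type (WT) mice, 2 labelled female and 2 labelled male in each genotype. Per the labels' protocols, cells grew at 5% O2 and 5% CO2. Strain, age, passage and the structure of the knockout allele were not given in the sources used here, and the cells that a primary culture contains could not be checked against fibroblast markers without gene positions. Libraries are named by genotype, sex label and number, as in KO F1 or WT M2, and values of the libraries of a genotype are listed throughout in the order F1, F2, M1, M2.

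Fibroblasts make most of the collagen of connective tissue. Col1a1 and Col1a2 encode the chains of type I collagen, the main load-bearing fibril, and types III and V (Col3a1, Col5a1, Col5a2) build into the same fibrils, with type V limiting their width. Type IV collagen (Col4a1, Col4a2) forms the sheet of basement membranes rather than fibrils, and type VI (Col6a3) forms beaded microfibrils near the cell surface. Fibronectin (Fn1) and fibrillin-1 (Fbn1) are glycoproteins, the first a fibre on which cells assemble collagen and the second the core of the microfibrils of elastic tissue. Accessibility of DNA near a gene is not a measure of its transcription.

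Promoter sequences of 7 of the 10 genes named for the windows were held by the RefSeq table used here (mouse build GRCm38.p6). The 250 bases before the annotated start are shown for 3 fibril-forming collagens, as an example of the sequence that lies in these windows and of how far their promoters differ in base composition. Capitals mark matches, on either strand, to CCAAT (bound by NF-Y), TATAAA (the TATA box), GGGCGG (bound by the Sp1 family), TGANTCA (bound by AP-1), GGAATG (bound by TEAD) or CACGTG (the E box).
Col1a2: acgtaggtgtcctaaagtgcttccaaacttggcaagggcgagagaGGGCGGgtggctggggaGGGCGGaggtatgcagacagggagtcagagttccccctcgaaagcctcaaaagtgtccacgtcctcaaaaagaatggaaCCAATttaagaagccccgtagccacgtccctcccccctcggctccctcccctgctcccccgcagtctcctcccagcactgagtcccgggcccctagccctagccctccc
Col3a1: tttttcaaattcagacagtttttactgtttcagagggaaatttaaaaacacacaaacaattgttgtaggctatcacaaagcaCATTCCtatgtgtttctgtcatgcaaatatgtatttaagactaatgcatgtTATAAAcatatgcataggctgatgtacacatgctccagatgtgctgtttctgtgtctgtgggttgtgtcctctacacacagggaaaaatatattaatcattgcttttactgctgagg
Col5a1: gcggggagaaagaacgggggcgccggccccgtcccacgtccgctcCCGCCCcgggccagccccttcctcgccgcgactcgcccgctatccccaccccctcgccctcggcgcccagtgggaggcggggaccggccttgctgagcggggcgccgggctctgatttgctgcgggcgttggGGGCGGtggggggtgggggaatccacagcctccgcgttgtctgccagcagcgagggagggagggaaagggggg
GC content was 62.0% in the Col1a2 stretch, 35.2% in Col3a1 and 76.4% in Col5a1. Col1a2 held CCAAT with its first base at -109 relative to the start, and GGGCGG at -205 and at -188. Col3a1 held TATAAA at -117 and, on the opposite strand, GGAATG at -168. Col5a1 held GGGCGG at -73 and, on the opposite strand, at -205. No matches overlapped, and none of the 3 stretches held TGANTCA or CACGTG. Among 32851 promoters of this length, 33.8% held CCAAT, 12.4% TATAAA, 32.7% GGGCGG, 6.7% TGANTCA, 12.6% GGAATG and 6.0% CACGTG. Which OCR covers these stretches was not analysed, because the builds differ.

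The table totals ranged from 43.2 to 72.9 M counts per library and the totals over OCRs from 28.0 to 55.3 M. A median member OCR held 163 counts per library, against 102 for all OCRs. OCRs took 69.9%, 69.6%, 75.8% and 64.6% of all counts in the KO libraries, and 65.1%, 70.8%, 76.4% and 74.5% in the WT libraries. One library went against its sex label: over 15 OCRs in the first 2 Mb of the Y chromosome, the library labelled KO F2 had 24.9 CPM (counts scaled to library size with TMM factors), against at most 0.0582 CPM in the other libraries labelled female and 31.6 to 43.4 CPM in those labelled male. Several results, among them the ratio of each window, are therefore also given without it. Others, such as the counts of OCRs in which the genotypes do not overlap and the 95% intervals, include it under its label. The leading component of the OCRs outside the windows held 45.7% of their variance and crossed both genotypes, with KO F1 and KO M1 of the KO and WT F1 and WT M2 of the WT libraries on one side and the other 4 libraries on the other. The second component held 26.6% and kept the genotypes apart, from -144.1 to -41.5 in KO and from -9.4 to 162.1 in WT.

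The windows were dense in open chromatin. The 63 tiles of 50 kb that make them up held a median of 8 OCRs each, against 4 in the 36401 tiles of the genome that held any OCR. Density was highest in the Col1a1 window, with 22.3 OCRs per 100 kb, followed by Col4a1-Col4a2 with 21.4, Fbn1 with 19.3, Col5a1 with 19.2, Col6a3 with 16.7, Col1a2 with 14.3, Col3a1-Col5a2 with 13.8 and Fn1 with 13. Per kb of OCR, the median level was 7.09 CPM over the members and 4.42 CPM over all OCRs. The Col1a1 window was again at the top, with a median of 16.5 CPM per kb, and the other 7 medians lay between 4.84 (Col3a1-Col5a2) and 8.68 CPM per kb (Col5a1). A repeat element overlapped 50.1% of the members and 62.0% of all OCRs. In the Fn1 window 3 OCRs held 48.8% of the summed level, whereas the 3 highest OCRs of each other window held 13.2% to 27.8% of theirs.

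**Figure D1:**
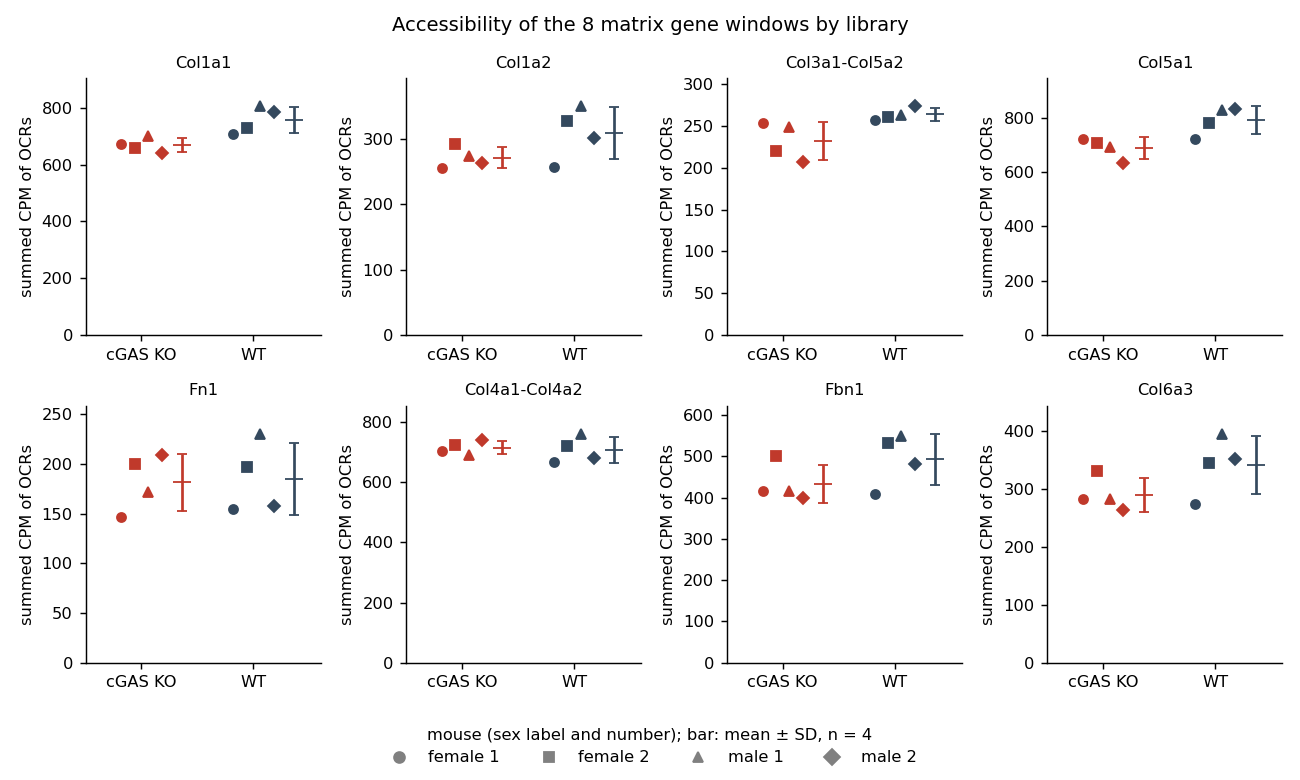
Summed accessibility of the OCRs in each window, in TMM-scaled CPM on an axis that starts at 0, with 1 point per library (cGAS KO left, WT right; the symbol gives the sex label and number) and the mean ± SD of 4 libraries beside the points. The groups do not overlap in the Col1a1, Col3a1-Col5a2 and Col5a1 windows, where all 4 KO points are below all 4 WT points, and they overlap in the other 5.

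Of the 8 windows, 7 had lower summed accessibility in KO than in WT on average, and the Col4a1-Col4a2 window did not. The Fn1 and Col4a1-Col4a2 differences were smaller than the spread between libraries. Their signs held under the other scalings (library totals without factors, DESeq2 size factors) but turned with single libraries left out, and in OCRs that no repeat overlapped the log2 ratios were 0.05 in Fn1 and -0.01 in Col4a1-Col4a2. Together the 555 members summed to 3454, 3635, 3478 and 3356 CPM in the KO libraries, against 3449, 3893, 4188 and 3865 CPM in the WT libraries. WT F1 lay inside the range of the KO libraries, and the other 3 WT libraries lay above it. The means were 3481 ± 116 CPM in KO and 3849 ± 304 CPM in WT (SD, n = 4 each), a log2 ratio of -0.14 (-0.17 without KO F2). As a share of all OCR counts, with no scaling factor, the members held 0.338%, 0.366%, 0.354% and 0.335% in the KO libraries, against 0.357%, 0.391%, 0.408% and 0.382% in the WT libraries.

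Single OCRs leaned the same way without passing the threshold. The log2 fold change was below 0 for 391 of the 555 members (70.5%), and for 50% of all OCRs. The median was -0.16 over the members (-0.20 without KO F2) and 0.0001 over all OCRs tested. No member passed an adjusted p of 0.05 in edgeR's quasi-likelihood test with Benjamini-Hochberg adjustment over 185267 OCRs, and neither did any other OCR (0% called in each direction); the lowest adjusted p of a member was 0.323. At an unadjusted p under 0.05, 65 members were lower in KO, where 3.45% of all OCRs were, and 14 were higher, where 6.42% of all OCRs were. Without KO F2 these counts were 93 lower (5.12% of all OCRs) and 17 higher (7.02%). The lower members numbered 41 without KO M1 (2.26% of all OCRs), 35 without KO M2 (1.71%) and 42 without WT M1 (2.25%), and the higher ones 9 without KO M2 (3.49%). All 4 KO libraries lay below all 4 WT libraries in 47 members, against 2.51% of all OCRs, and above them in 9 members, against 3.47%. DESeq2 gave 8 members an adjusted p under 0.05, 6 lower in KO (0.253% of all OCRs) and 2 higher (1.35% of all OCRs); it gave no adjusted p to 22 members. Those DESeq2 calls depended on which libraries were included, as did the calls over all OCRs, which numbered 433 lower and 2306 higher with every library. Without KO F2, 15 members were called, and over all OCRs 882 lower and 2184 higher. The members called were 14 without KO F1 (916 and 4491 over all OCRs), 12 without WT F1 (763 and 3460) and 5 without WT F2 (102 and 1362). One member was called without WT M1 (25 and 111 over all OCRs), 1 without WT M2 (12 and 39) and none without KO M2 (7 and 40). Surrogate variables are terms that sva estimates from the counts for further variation, and they can share variation with the genotype. For named OCRs, the log2 fold change with 2 surrogate variables in the edgeR model is given beside the value where it differed over 1.5 times without a change of sign.

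Lower members were the majority at every level and with or without repeats. Split into 4 nearly equal classes by mean level, 64.0% of the lowest class had a log2 fold change below 0, and the next 3 classes had 69.6%, 69.6% and 78.6%. Among the 277 members that no repeat overlapped 71.5% were lower in KO, and among the 278 that one overlapped 69.4%. Members narrower than 519 bp, the median of all OCRs, were lower in 67.7%, and the wider ones in 73.3%. The shares of all OCRs at the same level, repeat overlap or width were not computed.

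**Figure D2:**
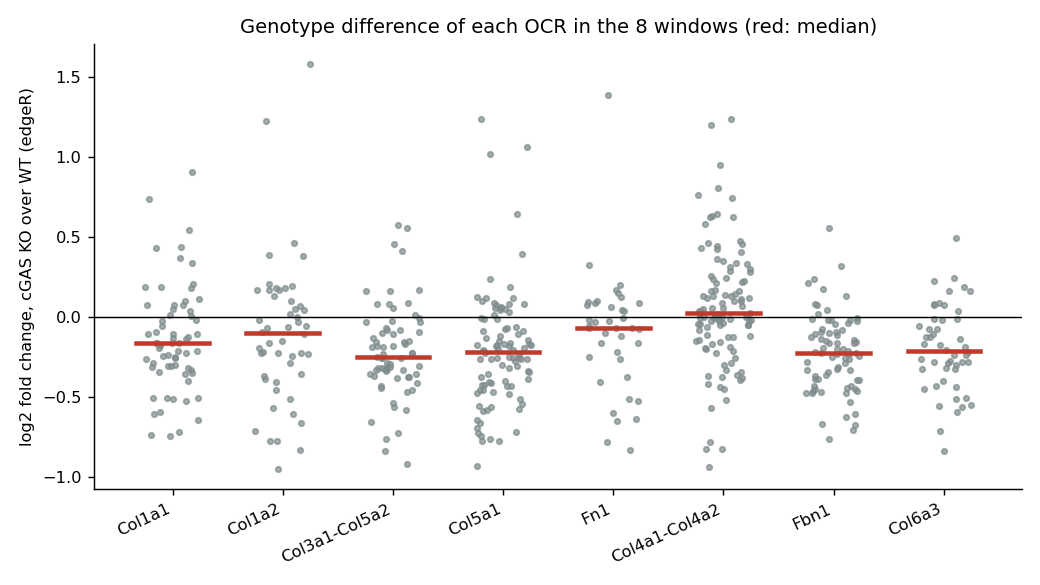
Log2 fold change of cGAS KO over WT (edgeR) for each of the 555 OCRs, by window, with 1 grey point per OCR and the window's median as a red bar. The medians lie between -0.26 (Col3a1-Col5a2) and 0.02 (Col4a1-Col4a2), and each window holds points on both sides of 0.

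The Col1a1 window had the highest accessibility per kb and held 4 of the 8 DESeq2 calls. Its 67 OCRs summed to 674, 659, 699 and 640 CPM in the KO libraries, against 708, 728, 807 and 787 CPM in the WT libraries. Every KO library was below every WT library, with means of 668 ± 24.9 CPM in KO and 757 ± 47.1 CPM in WT (SD, n = 4 each), so that KO stood at 88.2% of WT (log2 ratio -0.18, and -0.17 without KO F2). Of its OCRs, 47 of 67 had a log2 fold change below 0, with a median of -0.17. The groups were apart in 11 OCRs that were lower in KO (2.51% of all OCRs) and in 2 that were higher (3.47% of all OCRs). Restricted to the OCRs that no repeat overlapped, the log2 ratio of the window was -0.09.

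Several of the lower OCRs of this window lay close together, in the 50 kb tile that also held the most OCRs of the window, 22 of 67. The widest, chr11:94844175-94845799 (1625 bp, 145 kb into the window), had 18.0, 21.7, 29.3 and 23.5 CPM in the KO libraries, against 37.3, 32.5, 39.8 and 44.2 CPM in the WT libraries. The highest KO value was under the lowest WT value. The log2 fold change was -0.74 (95% interval -0.99 to -0.48), with an unadjusted p of 6.8e-05, the lowest among the members, an adjusted p of 0.323 in edgeR and of 0.00145 in DESeq2. It was the one DESeq2 call left without WT M1 and the one left without WT M2, and its log2 fold change lay between -0.82 and -0.67 when any single library was left out. Simple repeats covered 7.8% of it.

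Just before it lay chr11:94838948-94839494, with 6.48, 7.86, 8.04 and 6.94 CPM in the KO libraries, against 12.3, 10.1, 12.1 and 11.6 CPM in the WT libraries. Its groups were apart, with a log2 fold change of -0.65 (adjusted p 0.323 in edgeR and 0.00906 in DESeq2), and a B1 SINE covered 25.8% of it. Its neighbour chr11:94839730-94840048 overlapped no repeat and averaged 5.20 ± 0.514 CPM in KO and 7.44 ± 0.888 CPM in WT, a log2 fold change of -0.51 (adjusted p 0.323 in edgeR and 0.0305 in DESeq2). Further from them, chr11:94808608-94808975 had 6.79, 8.10, 7.11 and 7.57 CPM in the KO libraries, against 9.18, 12.98, 15.0 and 12.7 CPM in the WT libraries. These groups were apart too, at a log2 fold change of -0.75 (adjusted p 0.323 in edgeR and 0.0133 in DESeq2; -0.37 with 2 surrogate variables), and SINE copies covered 20.7% of the region.

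The OCR with the highest level per kb of the window, and of all members, was not among them. This region, chr11:94824240-94824858, averaged 28.1 ± 1.00 CPM in KO and 31.0 ± 4.20 CPM in WT (SD, n = 4 each), with overlapping groups and a log2 fold change of -0.14 (95% interval -0.38 to 0.11). The OCR of the window with the lowest p among those higher in KO, chr11:94968829-94969142, had 2.19, 1.53, 2.38 and 1.83 CPM in the KO libraries, against 1.49, 1.04, 1.08 and 0.692 CPM in the WT libraries. Its groups were apart by the narrow gap between KO F2 and WT F1, at a log2 fold change of 0.90 (edgeR adjusted p 0.352), which was 0.36 with 2 surrogate variables.

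The Col1a2 window, for the second chain of type I collagen, showed a difference of like size with overlapping groups. Its 50 OCRs summed to 255, 292, 274 and 263 CPM in the KO libraries, against 257, 327, 350 and 300 CPM in the WT libraries. WT F1 sat among the lowest KO values and the other 3 WT libraries were above all KO libraries. The means were 271 ± 16.3 CPM in KO and 309 ± 40.1 CPM in WT, a log2 ratio of -0.19 (-0.23 without KO F2 and -0.12 without WT M1). A log2 fold change below 0 was found in 31 of 50 OCRs, with a median of -0.10. In 3 OCRs all KO libraries were below all WT libraries (2.51% of all OCRs), and no OCR showed the opposite (3.47% of all OCRs).

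The OCR of this window with the lowest p among those lower in KO, chr6:4537114-4537954, had 3.11, 4.69, 4.01 and 4.93 CPM in the KO libraries, against 5.42, 8.17, 9.69 and 5.49 CPM in the WT libraries. The groups were apart, though KO M2 and WT F1 were close, and the log2 fold change was -0.78 (edgeR adjusted p 0.330). The widest member of all windows lay here too, chr6:4455978-4458058 with 2081 bp and a mean of 26.7 CPM over the 8 libraries. The most accessible OCR per kb, chr6:4418818-4419733, averaged 29.1 ± 1.57 CPM in KO and 32.3 ± 5.16 CPM in WT, with a log2 fold change of -0.15 (95% interval -0.43 to 0.13).

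One small OCR of the Col1a2 window, chr6:4617904-4618368, had the widest range of all members across libraries. It had 0.746, 2.03, 0.819 and 1.97 CPM in the KO libraries, against 0.740, 0.755, 0.344 and 0.192 CPM in the WT libraries. KO F2 and KO M2 were high, and KO F1 was level with the 2 female WT libraries. Its fitted log2 fold change was 1.58 (95% interval 0.48 to 2.67, edgeR adjusted p 0.332).

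The window shared by Col3a1, the type III collagen gene, and Col5a2, a type V chain gene beside it, had the largest share of lower OCRs among the fibril collagens. Its 69 OCRs summed to 253, 221, 249 and 206 CPM in the KO libraries, against 257, 261, 263 and 274 CPM in the WT libraries. The WT libraries lay close together and all above the KO libraries, the highest of which, KO F1, was close to WT F1. The means were 232 ± 22.5 CPM in KO and 264 ± 7.22 CPM in WT, a log2 ratio of -0.18 (-0.16 without KO F2). Of the 69 OCRs 57 had a log2 fold change below 0, with a median of -0.26. The groups were apart in 8 that were lower in KO (2.51% of all OCRs) and in 1 that was higher (3.47% of all OCRs).

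That higher OCR, chr1:45520990-45521353, had 3.14, 3.66, 3.84 and 3.98 CPM in the KO libraries, against 2.33, 2.91, 2.98 and 2.42 CPM in the WT libraries, a log2 fold change of 0.46 (edgeR adjusted p 0.491). The OCR with the lowest p among the lower ones, chr1:45555939-45556260, had 0.582, 0.727, 0.765 and 0.538 CPM in the KO libraries, against 1.51, 1.09, 1.07 and 1.33 CPM in the WT libraries. Its level was low and its groups were apart, at a log2 fold change of -0.92 (95% interval -1.56 to -0.28, edgeR adjusted p 0.332). The OCR with the highest level per kb, chr1:45394980-45395569, averaged 12.9 ± 2.14 CPM in KO and 16.5 ± 2.49 CPM in WT, with overlapping groups and a log2 fold change of -0.36 (edgeR adjusted p 0.507).

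The Col5a1 window was set around the gene for the chain shared by the common forms of type V collagen. It held the most OCRs in which the groups were apart, though a smaller share of its OCRs than the Col1a1 window did. Its 96 OCRs summed to 723, 707, 693 and 633 CPM in the KO libraries, against 723, 781, 830 and 833 CPM in the WT libraries. KO F1 and WT F1 were all but equal, at 722.6 and 722.9 CPM, and the remaining WT libraries were well above the remaining KO libraries. The means were 689 ± 39.3 CPM in KO and 792 ± 51.6 CPM in WT, which put KO at 87.0% of WT (log2 ratio -0.20, and -0.21 without KO F2). Values below 0 on the log2 scale were found in 74 of 96 OCRs, with a median of -0.22. In 13 OCRs all KO libraries were below all WT libraries (2.51% of all OCRs), and in 1 they were above (3.47% of all OCRs).

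Its lowest p among the lower OCRs was that of chr2:27738421-27738928, with 2.03, 2.25, 1.71 and 1.58 CPM in the KO libraries, against 2.36, 3.98, 4.60 and 3.52 CPM in the WT libraries. The lowest WT value, that of WT F1, was close to the KO values, and the log2 fold change was -0.93 (edgeR adjusted p 0.323, DESeq2 adjusted p 0.0502), which was -0.10 with 2 surrogate variables. Among the higher ones it was chr2:27982114-27982510, with 1.24, 2.52, 1.42 and 2.83 CPM in the KO libraries, against 0.740, 1.31, 0.911 and 0.462 CPM in the WT libraries. Those groups overlapped through KO F1 and WT F2, and the log2 fold change was 1.24 (edgeR adjusted p 0.340), or 0.46 with 2 surrogate variables. Per kb the highest level was that of chr2:27748264-27749140, which averaged 32.0 ± 3.43 CPM in KO and 35.1 ± 2.10 CPM in WT, a log2 fold change of -0.13 (95% interval -0.37 to 0.10).

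**Figure D3:**
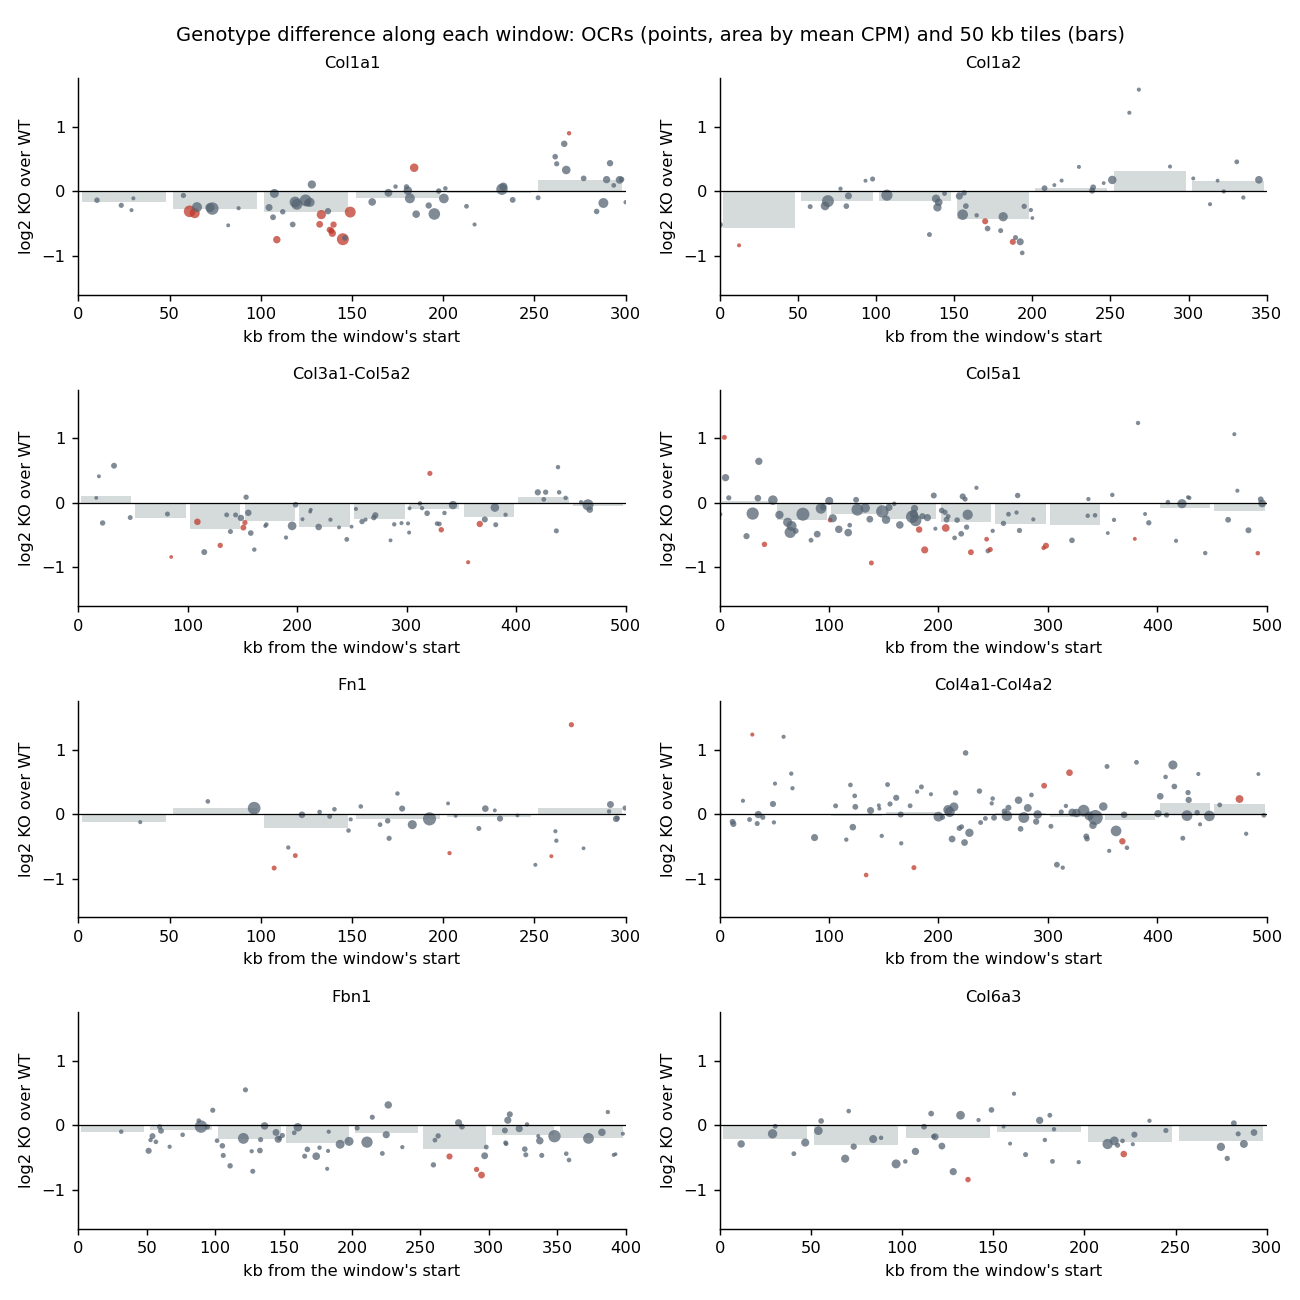
Log2 fold change of cGAS KO over WT (edgeR) for each OCR along its window, against the distance of its midpoint from the window's start in kb; grey bars give the value of each 50 kb tile, the area of a point grows with its mean CPM, and red points mark OCRs in which all 4 KO libraries lie on one side of all 4 WT libraries. Lower OCRs are spread along most windows, and in the Col1a1 window several lie together between 100 and 150 kb, where its OCRs are densest.

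The Col4a1-Col4a2 window, for the basement membrane collagen whose genes stand next to each other, had no lower sum in KO. Its 107 OCRs summed to 704, 725, 693 and 741 CPM in the KO libraries, against 666, 723, 763 and 680 CPM in the WT libraries. The ranges overlapped almost wholly, with means of 716 ± 21.7 CPM in KO and 708 ± 43.6 CPM in WT and a log2 ratio of 0.02 (0.01 without KO F2). In all, 51 of 107 OCRs had a log2 fold change below 0, near the 50% of all OCRs, with a median of 0.02. The groups were apart in 3 OCRs that were lower in KO (2.51% of all OCRs) and 4 that were higher (3.47% of all OCRs).

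The 2 DESeq2 calls of this window lay in opposite directions. One was chr8:11233613-11234170, with 1.72, 1.62, 1.19 and 0.897 CPM in the KO libraries, against 2.74, 2.22, 2.29 and 3.02 CPM in the WT libraries, and no overlap between the groups. Its log2 fold change was -0.94 (adjusted p 0.323 in edgeR and 0.0499 in DESeq2), and -0.28 with 2 surrogate variables. The other, chr8:11513575-11514731, had 19.9, 22.5, 14.5 and 26.1 CPM in the KO libraries, against 15.5, 11.1, 11.5 and 10.97 CPM in the WT libraries. The groups overlapped through KO M1 and WT F1, and the log2 fold change was 0.76 (adjusted p 0.323 in edgeR and 0.0366 in DESeq2), or 0.11 with 2 surrogate variables. An LTR of the MLT1B subfamily covered 31.3% of that region. Per kb, chr8:11308480-11309008 had the highest level of the window and averaged 18.7 ± 2.32 CPM in KO and 17.8 ± 1.63 CPM in WT, a log2 fold change of 0.07 (95% interval -0.21 to 0.34; 0.45 with 2 surrogate variables).

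The Col6a3 window, for a chain of microfibrillar type VI collagen, had lower sums in KO on average and the widest gap between the sex labels of the 8 windows. Its 50 OCRs summed to 283, 331, 284 and 263 CPM in the KO libraries, against 274, 346, 396 and 352 CPM in the WT libraries. WT F1 was below 3 of the 4 KO libraries, and the other WT libraries were above all of them. The means were 290 ± 28.9 CPM in KO and 342 ± 50.8 CPM in WT, which put KO at 84.9% of WT (log2 ratio -0.24, and -0.31 without KO F2). A log2 fold change below 0 was found in 39 of 50 OCRs, with a median of -0.22. The groups were apart in 2, both lower in KO (2.51% of all OCRs were).

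The lower OCR with the lowest p, chr1:90685888-90686478, had 2.00, 3.12, 4.04 and 2.40 CPM in the KO libraries, against 4.41, 5.82, 6.06 and 4.37 CPM in the WT libraries. Its groups were apart, at a log2 fold change of -0.84 (edgeR adjusted p 0.326), which was -0.56 with 2 surrogate variables. Close by, chr1:90681636-90682519 was the higher OCR with the lowest p of the window, at 15.8 ± 0.588 CPM in KO and 14.2 ± 0.720 CPM in WT, a log2 fold change of 0.16 with an interval that held 0 (-0.07 to 0.38). The most accessible OCR per kb, chr1:90762475-90762948, averaged 19.6 ± 2.55 CPM in KO and 24.0 ± 3.86 CPM in WT, a log2 fold change of -0.29 (95% interval -0.61 to 0.03).

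The Fn1 window, for fibronectin, varied more between libraries than between genotypes. Its 39 OCRs summed to 146, 200, 171 and 209 CPM in the KO libraries, against 155, 197, 231 and 157 CPM in the WT libraries. KO F1 and KO M1 were low, as were WT F1 and WT M2, the same 4 libraries that shared a side of the leading component. The means were 182 ± 28.5 CPM in KO and 185 ± 36.1 CPM in WT, a log2 ratio of -0.03 (-0.08 without KO F2). A log2 fold change below 0 was found in 25 of 39 OCRs, with a median of -0.07. The groups were apart in 4 OCRs that were lower in KO (2.51% of all OCRs) and in 1 that was higher (3.47% of all OCRs). The median OCR of this window differed 2.43-fold between its highest and its lowest library, against 1.97-fold over all members and 2.19-fold over all OCRs.

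Of the 3 OCRs that held nearly a majority of the window's level, 2 showed a similar order of libraries. The strongest by summed counts, chr1:71691788-71693186, had 30.1, 41.2, 35.8 and 40.2 CPM in the KO libraries, against 30.0, 43.2, 49.4 and 32.3 CPM in the WT libraries. The third, chr1:71682136-71683959, had 5.89, 15.6, 18.8 and 23.1 CPM in the KO libraries, against 11.5, 16.6, 29.4 and 10.8 CPM in the WT libraries. Both were named after their values were seen, and in both WT M1 was highest and KO F1, WT F1 and WT M2 were the lowest 3. The OCR with the highest level per kb, chr1:71595894-71596842, was steadier, at 36.2 ± 3.17 CPM in KO and 34.0 ± 2.57 CPM in WT and a log2 fold change of 0.09 (95% interval -0.13 to 0.31).

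One OCR of the Fn1 window was higher in KO by DESeq2. This region, chr1:71769910-71770627, had 4.12, 4.97, 3.61 and 6.89 CPM in the KO libraries, against 2.58, 2.00, 1.72 and 1.31 CPM in the WT libraries. The groups were apart, at a log2 fold change of 1.39 (95% interval 0.75 to 2.02; adjusted p 0.323 in edgeR and 0.00497 in DESeq2). With 2 surrogate variables it was 0.26. The lower OCR with the lowest p, chr1:71607019-71607624, averaged 2.01 ± 0.484 CPM in KO and 3.61 ± 1.39 CPM in WT, with groups that did not overlap and a log2 fold change of -0.84 (edgeR adjusted p 0.389), which was -0.53 without WT M1.

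The Fbn1 window, for fibrillin-1, had the largest share of lower OCRs. The log2 fold change was below 0 in 67 of its 77 OCRs (87.0%), with a median of -0.23. However, the groups were apart in 3 of them (2.51% of all OCRs were, with KO lower) and overlapped in the window's sum. That sum was 417, 500, 416 and 400 CPM in the KO libraries, against 410, 531, 549 and 482 CPM in the WT libraries. KO F2 stood far above the other KO libraries, and WT F1 sat among them. The means were 433 ± 45.3 CPM in KO and 493 ± 62.3 CPM in WT, a log2 ratio of -0.19 (-0.26 without KO F2).

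The DESeq2 call of this window varied little within each genotype. In chr2:125294319-125295015 the values were 6.13, 6.44, 5.53 and 5.17 CPM in the KO libraries, against 9.42, 10.4, 10.4 and 9.29 CPM in the WT libraries. The gap between the groups was wider than the spread within either. The log2 fold change was -0.77 (95% interval -1.08 to -0.45; unadjusted p 0.000277, adjusted p 0.323 in edgeR and 0.0016 in DESeq2), and it lay between -0.82 and -0.72 when any single library was left out. No repeat overlapped this region. The most accessible OCR per kb, chr2:125089002-125090264, averaged 33.6 ± 2.24 CPM in KO and 34.0 ± 2.83 CPM in WT, a log2 fold change of -0.02 (95% interval -0.24 to 0.21). Among the higher OCRs the lowest p was that of chr2:125121952-125122321, with 3.62 ± 0.873 CPM in KO and 2.58 ± 1.28 CPM in WT, a log2 fold change of 0.55 whose interval held 0 (-0.09 to 1.19), and of 0.85 without WT F1.

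**Figure D4:**
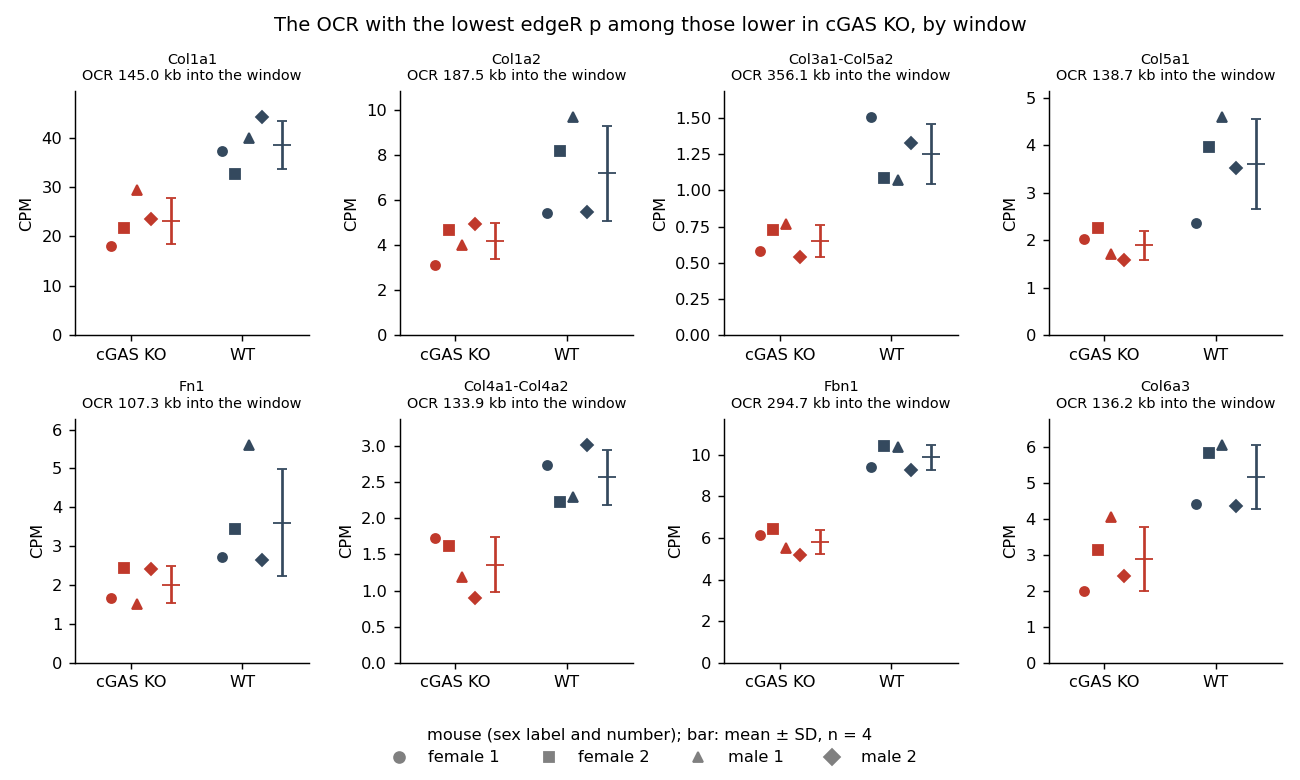
Accessibility, in TMM-scaled CPM on axes that start at 0, of the OCR with the lowest edgeR p among those lower in cGAS KO in each window, with 1 point per library (cGAS KO left, WT right) and the mean ± SD of 4 libraries beside the points. The OCRs were picked by this contrast; in each of the 8 the KO points lie below the WT points, most closely in Col5a1, where KO F2 has 2.25 CPM and WT F1 2.36 CPM.

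At the most accessible OCR of each window, the one with the highest level per kb, the groups overlapped in all 8 windows, and the log2 fold changes of these 8 OCRs ran from -0.36 to 0.09.

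Sums over fixed tiles of 50 kb gave each window a test within a fit across the genome. Of the 63 tiles in the windows, 50 had a log2 fold change below 0, against 50% of the 36401 tiles tested, and their median was -0.12 (-0.16 without KO F2). None passed an adjusted p of 0.05 in edgeR, nor did any other tile (0% called in each direction), and the lowest adjusted p was 0.413. At an unadjusted p under 0.05, 13 tiles were lower in KO, where 4.08% of all tiles were, and 1 was higher, where 5.49% were. Without KO F2 the counts were 20 lower (6.39% of all tiles) and 0 higher (6.17%). Without WT F1 there were 23 lower tiles (5.97% of all tiles) and the median was -0.19. In 8 tiles all KO libraries lay below all WT libraries (2.55% of all tiles), and in none above (3.48%). All 8 tiles of the Fbn1 window and all 6 of the Col6a3 window had a value below 0, as did 9 of 10 in Col5a1, 8 of 10 in Col3a1-Col5a2, 5 of 6 in Col1a1, 4 of 7 in Col1a2, 4 of 6 in Fn1 and 6 of 10 in Col4a1-Col4a2.

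Of the tiles in the windows, 2 had an adjusted p under 0.05 in DESeq2, both lower in KO, where 0.316% of all tiles were; none was higher, where 0.712% were. The first was the Col1a1 tile from 100 to 150 kb into its window, with 22 OCRs, which held 255, 252, 268 and 237 CPM in the KO libraries, against 292, 298, 341 and 342 CPM in the WT libraries. Its groups were apart, at a log2 fold change of -0.33 (95% interval -0.49 to -0.16; adjusted p 0.413 in edgeR and 0.00742 in DESeq2), and the clustered OCRs described above lie in it. The second was the Col5a1 tile from 200 to 250 kb into its window, with 18 OCRs, which held 78.9, 80.8, 79.4 and 73.9 CPM in the KO libraries, against 90.4, 95.5, 99.4 and 100.2 CPM in the WT libraries. The highest KO value, 80.8 CPM, was well below the lowest WT value, 90.4 CPM, and the log2 fold change was -0.30 (95% interval -0.45 to -0.15; adjusted p 0.413 in edgeR and 0.00634 in DESeq2).

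In the other windows the tile with the lowest p had overlapping groups. Its log2 fold change was -0.42 in Col1a2 (150 kb into the window, adjusted p 0.419), -0.40 in Col3a1-Col5a2 (100 kb, adjusted p 0.427), -0.37 in Fbn1 (250 kb, adjusted p 0.413) and -0.26 in Col6a3 (200 kb, adjusted p 0.537), all by edgeR. In Fn1 and Col4a1-Col4a2 it was above 0, at 0.10 (50 kb, adjusted p 0.804) and 0.17 (400 kb, adjusted p 0.533) by edgeR.

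The windows together were lower in KO on each side of the leading component, with overlapping groups on one of them. On the side that held KO F1 and KO M1, the 8 windows together averaged 3466 CPM in the 2 KO libraries and 3657 CPM in the 2 WT libraries, a log2 ratio of -0.08, and on the side of the other 4 libraries 3495 CPM in KO and 4041 CPM in WT, a log2 ratio of -0.21. On both sides, both KO libraries were below both WT libraries in the Col1a1, Col3a1-Col5a2 and Col5a1 windows. This follows from the separation of all 4 KO from all 4 WT libraries there, and adds nothing to it. In the Col3a1-Col5a2 window the log2 ratio was -0.08 on the first side and -0.30 on the other. With 1 surrogate variable in the edgeR model, 42 members had an adjusted p under 0.05, of which 33 were lower in KO (1.62% of all OCRs were) and 9 higher (4.2% of all OCRs). The count was 52 without KO F2, where 3484 OCRs of the whole table were called lower and 7221 higher. It was 29 without KO F1 (2333 and 5616 over all OCRs), 25 without KO M1 (1631 and 7224) and 11 without KO M2 (656 and 2806). Without WT F1 it was 93 (6889 and 13619 over all OCRs), and without WT M2 it was 10 (476 and 2484). Leaving out either WT F2 or WT M1 gave 0 members called, and 0 OCRs in the whole table. With 2 surrogate variables no member was called (0% of all OCRs), and the median of the members was 0.04, against 0.02 over all OCRs. At an unadjusted p under 0.05 there were then 14 lower members (1.99% of all OCRs) and 16 higher (2.3%).

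By sex label, the log2 ratio of the 8 windows was -0.24 between male KO and male WT libraries and -0.05 between female KO and female WT libraries (-0.09 with KO F1 as the one female KO library). The gap was widest in Col6a3, at -0.45 for male and -0.01 for female labels, followed by Fbn1, at -0.34 and -0.04, and Col5a1, at -0.33 and -0.07. With KO F1 as the one female KO library, the female values were -0.13 in Col6a3, -0.17 in Fbn1, -0.06 in Col5a1 and -0.27 in Fn1, which had -0.02 with KO F2. In the test of that gap itself, the interaction of genotype and sex label, no member passed an adjusted p of 0.05 in edgeR or in DESeq2 (0% of all OCRs in edgeR). At an unadjusted p under 0.05 there were 13 members in edgeR (1.55% of all OCRs) and 12 in DESeq2 (1.39% of all OCRs). Without KO F2 no member passed in edgeR either, with 17 at an unadjusted p under 0.05 (2.69% of all OCRs). Between sex labels, no member passed in edgeR, with 2 at an unadjusted p under 0.05 (0.996% of all OCRs), nor in DESeq2, with 6 (1.24%). Without KO F2 no member passed in edgeR, where 15 OCRs of the whole table did, and 13 members had an unadjusted p under 0.05 (3.3% of all OCRs).

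The counts of repeats in the windows that no OCR overlaps give the level of chromatin outside peaks. As a share of all such repeat counts in a library, in parts per 1000000 (ppm), the 4606 repeats of the 8 windows held 1416, 1749, 1935 and 1519 ppm in the KO libraries, against 1399, 1845, 2276 and 1804 ppm in the WT libraries. KO F1 and WT F1 were lowest and WT M1 highest, and the groups overlapped. The means were 1655 ± 233 ppm in KO and 1831 ± 359 ppm in WT (SD, n = 4 each), a log2 ratio of -0.15, next to -0.14 for the OCRs. By window the ratio was -0.20 in Col1a1, -0.22 in Col1a2, -0.12 in Col3a1-Col5a2, -0.23 in Col5a1, 0.02 in Col4a1-Col4a2, -0.17 in Col6a3, -0.10 in Fn1 and -0.25 in Fbn1. The part of this level outside peaks in the OCR values was not tested.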

How the data were processed

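Per the submitters' processing notes, the build was GRCm39 and the tools included Bowtie2, MACS2, Trim Galore, Picard, SAMtools, featureCounts and bedtools. The authors deposited estimated counts from featureCounts 2.0.3, per the file headers, over a joint set of peaks and annotated repeats. Only pairs with both mates aligned were used, only the 5' position of a read was counted, and a position inside several regions was divided equally among them, so that an OCR shares counts with the repeats inside it. The shift of read ends for the transposase, the treatment of reads with several equal matches and the merging of peaks across libraries were not given in the sources used here.

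Rounded to whole numbers, these values entered every model. The OCRs were tested with edgeR 4.0.16 (R 4.3.3), by the robust quasi-likelihood test with TMM factors from OCRs, the sex label as covariate and the filterByExpr filter, which removed 1 OCR and no member. P-values were adjusted by the Benjamini-Hochberg method over the 185267 OCRs left, at a threshold of 0.05. The same test was run on counts summed over 50 kb tiles. CPM use TMM-scaled library sizes, and window sums carry no test. Intervals of log2 fold changes were derived from the F statistic. The tests were checked on simulated counts. Those counts varied independently between OCRs, so the check does not cover variation shared among OCRs, such as the leading component. Alternatives were DESeq2 1.42.0, limma 3.58.1 voom, other scaling and filters, no sex covariate, a replicate block, surrogate variables (sva 3.50.0) and leaving out each library. DESeq2 and the fit with 1 surrogate variable were also repeated without each library, the interaction without KO F2 and the window sums on each side of the leading component, all 4 added after seeing the data.

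The text names, per window, the OCR with the highest CPM per kb and the OCR and tile with the lowest p in edgeR (for OCRs in each direction), and the members called by DESeq2. The members, gene names and lists were chosen with earlier results of these data known. Estimated counts limit the precision, since read pairs without molecular identifiers are not independent molecules, and p-values measure the spread between cultures of different mice.

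Coordinates follow the deposited table (GRCm39). The reference tables used here were in another build, GRCm38.p6, and served for promoter sequences. Overlap of OCRs with gene starts, the other matrix genes, cell type markers, the Cgas locus and sequences of the OCRs themselves were not analysed here.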

Additional observations from a re-analysis of the deposited data

Results flagged for a closer look

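In 3 cases a single library stood far from the other 3 of its genotype, with a gap to the nearest that took up most of the group's whole range (Dixon's criterion at 95%). In the Fbn1 window the library labelled KO F2 summed to 500.1 CPM, against 416.7 CPM in the nearest KO library. In chr1:90762475-90762948, the most accessible OCR per kb of the Col6a3 window, the same library had 23.4 CPM, against 18.4 CPM in the nearest. In chr8:11513575-11514731, one of the DESeq2 calls of the Col4a1-Col4a2 window, WT F1 had 15.5 CPM, against 11.5 CPM in the nearest WT library. Among the 86 groups of 4 libraries examined in this way, chance alone gives such a gap in about 1 of 20.

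In 1 OCR the genotypes stood in opposite order between the sex labels. The most accessible OCR per kb of the Col4a1-Col4a2 window, chr8:11308480-11309008, had a log2 ratio of KO over WT of 0.31 between libraries labelled female and -0.18 between those labelled male, with both KO libraries on one side of both WT libraries each time. With 2 libraries per genotype and sex label such an order also arises by chance, and how often was not computed. In edgeR's test of the interaction of genotype and sex label, neither this OCR nor any other passed the threshold. KO F2 is one of the libraries concerned.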

How the results depend on the processing

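No member OCR or tile was called in edgeR under any scaling or filter tried, without the sex covariate, without any single library or with a replicate block of sex label and number. The replicate block gave 0 called, a median of -0.16 and, over tiles, 0 called. At an unadjusted p under 0.05 it gave 78 lower members (4.57% of all OCRs) and 17 higher (7.85%). The labels do not say whether the numbers pair the libraries. Deviations of same-numbered libraries from their genotype means correlated at 0.59 (F1), 0.61 (F2), -0.29 (M1) and -0.45 (M2). The positive values join libraries on the same side of the leading component and the negative ones libraries on opposite sides, so they cannot decide on pairing.

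More calls came from other models. DESeq2 called 8 members and 2 tiles (0 to 15 members without single libraries). The fit with 1 surrogate variable, the number estimated, called 42 (0 to 93). Members at an unadjusted p under 0.05 were 125 lower and 22 higher in limma voom, where 6.42% and 8.85% of all OCRs were. They were 130 and 31 with 1 surrogate variable (9.38% and 11.5% of all OCRs), and 14 and 16 with 2 (1.99% and 2.3%). With 2, 258 members were below 0 and the median reversed to 0.037; the cause was not tested. Without single libraries edgeR gave from 35 lower members (without KO M2, 1.71% of all OCRs) to 96 (without WT F1, 4.29%). Higher members ranged from 9 (without KO M2, 3.49%) to 17 (without KO F2, 7.02%). These fits gave 357 to 407 members below 0 and a median of -0.20 to -0.125. Lower tiles ranged from 10 (without KO M2, WT M1 or WT M2, 1.96% to 2.44% of all tiles) to 23 (without WT F1, 5.97%). Higher tiles ranged from 0 (2.55% to 6.56% of all tiles in those fits) to 2 (without KO M1, 5.13%). Higher tiles numbered 2 under DESeq2 (6.44% of all tiles), library totals (5.34%), TMM over tiles (5.53%) and no sex covariate (6.01%). The Col1a1 log2 ratio was -0.095 without OCRs that repeats overlap, and that of Col3a1-Col5a2 -0.295 on the side of KO F2, KO M2, WT F2 and WT M1.

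With 2 surrogate variables the log2 fold change reversed for chr1:45394980-45395569 (0.243), chr1:90762475-90762948 (0.172), chr11:94824240-94824858 (0.138), chr6:4418818-4419733 (0.130), chr2:27748264-27749140 (0.115), chr2:125089002-125090264 (0.054), chr2:125121952-125122321 (-0.023) and chr6:4617904-4618368 (-0.068). For chr2:125089002-125090264 it was 0.036 without KO M1 and 0.043 without WT M1 (range over single libraries left out -0.066 to 0.043). For chr8:11308480-11309008 it was -0.002 in limma voom, -0.015 without KO F2 and -0.006 without WT F1 (range -0.015 to 0.128). Without single libraries the log2 ratio of the window sums kept its sign except in Fn1 (-0.10 to 0.10) and Col4a1-Col4a2 (-0.01 to 0.05). Promoters of other matrix genes were not run. OCRs with few counts limit what could be detected, and 474 of 555 members had a mean of at least 50 counts.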
